A study of Mus musculus with 6 samples.

Results

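Rd3l, Rasgrf1, Fgf1 and Faim2 were among the genes with the largest gap between adult and embryonic retinal ganglion cells (RGCs, the neurons that send the eye's output down the optic nerve) of mice. These 4 genes, of 10361 gene names in the table, were chosen by their measured level: they were 4 of the 5 with the deepest fall at embryonic day 18 (E18), on a log2(FPKM + 1) scale, among tested genes with a value above 0 in all 6 libraries. The size of that fall is therefore a description, and no test of it is given. Poly-A RNA had been sequenced from wild-type C57/6NCrl mice in 3 groups of 2 libraries. In the adult control group, labelled mCherry, the viral vector AAV2 had delivered a scrambled shRNA mimic. In the adult miR-1247 group it had instead delivered a miR-1247-5p mimic, miR-1247-5p being a microRNA. Untreated E18 RGCs formed the remaining group. Adult cells, about 5000 from 10 retinas per condition, were pooled, captured on Thy1 antibody and sorted for mCherry, whereas about 50000 E18 cells were captured on Thy1 antibody without a sort. Age, viral vector, sorting and cell number cannot be told apart between E18 and the adult. The labels do not say that the libraries of a group came from separate animals, so p-values measure the spread between libraries, which may be technical. In bulk RNA, fewer cells of a type and less RNA per cell cannot be told apart either.

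Each of the 4 genes encodes a protein of a different kind. Fgf1 is a fibroblast growth factor that binds all the FGF receptor tyrosine kinases and leaves the cell without a signal peptide. Rasgrf1 is a guanine nucleotide exchange factor that loads Ras with GTP when calcium binds calmodulin, and in the mouse brain it is an imprinted gene read mainly from the paternal copy. Faim2, also called lifeguard, is a neuronal membrane protein of the TMBIM family that restrains cell death through the Fas receptor. Rd3l is a paralog of Rd3, which in photoreceptors binds and restrains retinal guanylate cyclase. FGF receptors and calcium signals both reach the Raf, MEK and ERK kinases through Ras, by different exchange factors.

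The microRNA that separates the adult groups is shown because its seed, bases 2 to 8 in capitals, defines the sites it can pair with (mature sequence from RefSeq, GRCm38.p6, chromosome 12, 110278094 to 110278115, minus strand).
mmu-miR-1247-5p: aCCCGUCCcguucguccccgga
The complementary site GGACGGG was absent from the canonical 3′ UTRs of Rd3l (339 bases), Rasgrf1 (215 bases), Fgf1 (3263 bases) and Faim2 (3136 bases) in the GENCODE annotation of GRCm39. It was present in 322 of 9911 genes of the table with such a UTR (3.25%). This is a statement on these letters only.

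RefSeq promoter windows (GRCm38.p6, 250 bases before to 50 bases after the start) matched 2 of the 4 genes, Rasgrf1 and Rd3l. They are shown because both genes had a like difference in level between the ages while their start regions differ in composition. Capitals mark matches, on either strand, to the TATA box (TATAAA), the CCAAT box (CCAAT), the Sp1 site (GGGCGG), the cyclic AMP response element (TGACGTCA), the AP-1 site (TGACTCA) or the E-box (CACGTG). The Rasgrf1 window lies at chr9:89909525-89909824 on the plus strand and the Rd3l window at chr12:111980702-111981001 on the minus strand.
Rasgrf1: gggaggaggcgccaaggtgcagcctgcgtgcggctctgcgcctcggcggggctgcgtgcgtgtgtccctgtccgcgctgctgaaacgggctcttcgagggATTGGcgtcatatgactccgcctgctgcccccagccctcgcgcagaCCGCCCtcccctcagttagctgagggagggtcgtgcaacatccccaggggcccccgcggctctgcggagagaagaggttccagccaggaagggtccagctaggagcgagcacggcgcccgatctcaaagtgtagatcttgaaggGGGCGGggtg
Rd3l: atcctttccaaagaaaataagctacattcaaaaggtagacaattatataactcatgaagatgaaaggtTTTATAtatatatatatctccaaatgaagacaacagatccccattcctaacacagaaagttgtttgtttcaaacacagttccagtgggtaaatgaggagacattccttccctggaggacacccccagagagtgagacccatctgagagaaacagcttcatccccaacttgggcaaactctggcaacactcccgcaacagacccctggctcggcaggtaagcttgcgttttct
The Rasgrf1 window was rich in G and C, with a GC content of 68.3% and 26 CG pairs. The Rd3l window had a GC content of 42.7% and 3 CG pairs, against medians of 52.7% and 7 CG pairs over all 32851 windows. Rasgrf1 held a reverse CCAAT match at position -150 and GGGCGG matches at -104 (reverse) and 41, motifs present in 37.4% and 35.7% of all windows. Rd3l held a reverse TATAAA match at -182, a motif in 13.6% of all windows. Neither window matched the cyclic AMP response element (in 1.79% of windows), the AP-1 site (5.20%) or the E-box (7.15%). No motif of the 6 was found in both windows.

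The 4 genes lie on 4 chromosomes, and each had 1 assembled locus in the deposited table (mm39, the build named in the submitters' processing notes). Rasgrf1 lies at chromosome 9, 89791467 to 89909030, with GENCODE placing the gene on the plus strand. The Faim2 locus is at chromosome 15, 99394807 to 99426065, on the minus strand. The Rd3l locus is at chromosome 12, 111937992 to 112035288, but the GENCODE gene covers only 111945545 to 111947751 on the minus strand. It sits within the body of Tdrd9, which is on the plus strand and has no entry in the table. The Fgf1 locus is at chromosome 18, 38734586 to 39522478, with the gene itself at 38971717 to 39077186 on the minus strand. That locus also carries Arhgap26, a plus-strand gene 48910 bases away. The named library kit is not stated to keep strand, so reads of Rd3l and Tdrd9 could not be told apart, nor those of Fgf1 and the long noncoding gene Gm5820 that overlaps it on the plus strand without an entry.

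Levels are in FPKM (fragment counts scaled by transcript length and by the size of the library), so they can be compared between genes. Rd3l was at 198 and 193 FPKM in the 2 adult control libraries, at 265 and 245 FPKM in the miR-1247 libraries, and at 0.469 and 0.713 FPKM at E18. Its adult values lay far above both E18 values, and the lowest adult library was 271-fold above the higher E18 library. The E18 mean was 0.303% of the control mean.

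Rasgrf1 was at 120 and 113 FPKM in control, at 115 and 115 FPKM in miR-1247, and at 0.264 and 0.264 FPKM in E18 libraries. The adult groups overlapped each other, and neither overlapped E18. Its E18 mean was 0.227% of control, the smallest share of the 4 genes. The E18 values differed by 0.0523%. Of 338 entries under 1 FPKM in both E18 libraries, 28 likewise matched within 0.2%, so near-equal low values were not peculiar to it.

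Fgf1 was at 114 and 111 FPKM in control, at 53.3 and 53.0 FPKM in miR-1247, and at 1.37 and 0.102 FPKM in E18 libraries. Here the 3 groups did not overlap, and the miR-1247 libraries lay between control and E18. The E18 libraries stood 13.5-fold apart, the widest gap of any of the 4 genes, so the E18 share of control (0.653% of the means) rests mainly on 1 library. Arhgap26, which shares the locus, was at 26.0 and 23.6 FPKM in control and 27.2 and 25.4 FPKM at E18. The E18 gap at Fgf1 was thus not seen across the whole locus.

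Faim2 was at 181 and 179 FPKM in control, at 221 and 217 FPKM in miR-1247, and at 2.49 and 2.01 FPKM in E18 libraries. It kept the highest E18 level of the 4, at 1.25% of control. In the adult, Faim2 was a close second to Rd3l: control means were 195 ± 3.18 FPKM for Rd3l and 180 ± 1.53 FPKM for Faim2 (SD, n = 2). Rasgrf1 (117 ± 5.44 FPKM) and Fgf1 (113 ± 2.20 FPKM) followed and did not differ beyond their spread. At E18 the order was Faim2 (2.25 ± 0.339 FPKM), Fgf1 (0.737 ± 0.898 FPKM), Rd3l (0.591 ± 0.173 FPKM) and Rasgrf1 (0.264 ± 9.8e-05 FPKM). The E18 spread of Fgf1 covered both Rd3l and Rasgrf1.

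**Figure D1:**
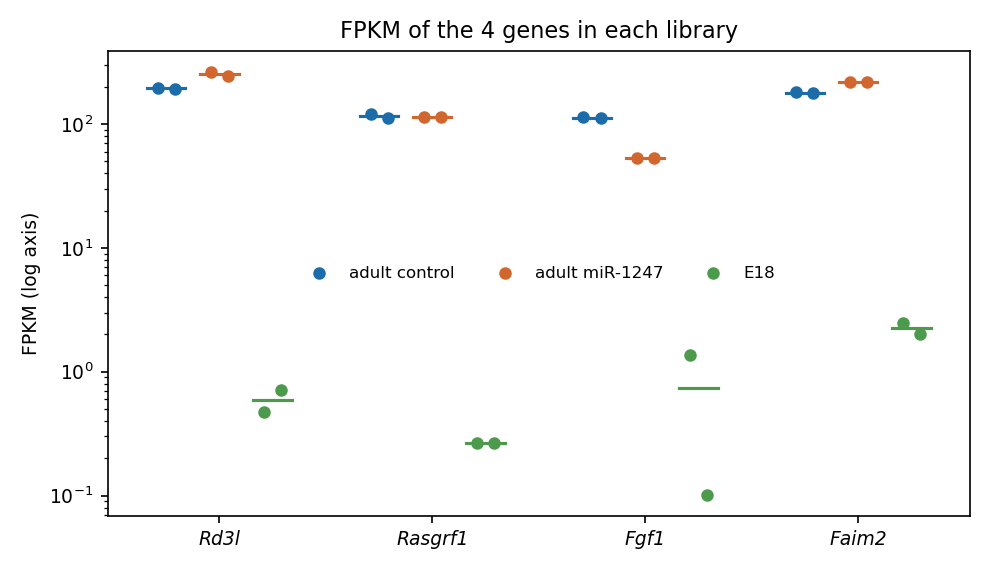
FPKM of Rd3l, Rasgrf1, Fgf1 and Faim2 in each library on a log axis; points are the 2 libraries of each group and bars their mean. All adult points lie between 53.0 and 265 FPKM and all E18 points between 0.102 and 2.49 FPKM.

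In adult control RGCs the 4 genes were among the more abundant transcripts, from rank 230 (Rd3l) and 252 (Faim2) to 488 (Rasgrf1) and 512 (Fgf1) of 9987 tested genes. At E18 they ranked 9898, 9457, 9955 and 9861, near the bottom of the same list. Together they summed to 613 and 596 FPKM in control, 653 and 631 FPKM in miR-1247, and 4.59 and 3.09 FPKM in E18 libraries. These ranks follow from how the genes were chosen.

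The choice can be placed against the genes next in order. Of 9808 tested genes above 0 in every library, Rd3l ranked 1, Rasgrf1 3, Fgf1 4 and Faim2 5 in depth of fall on the log2(FPKM + 1) scale. Their E18 minus control differences were -6.95, -6.54, -6.14 and -5.80. Rank 2 was held by Mgarp (-6.67), a mitochondrial protein of neurons, which went from 1153 FPKM in control to 8.77 and 12.2 FPKM in the E18 libraries and was not among the chosen genes. Just outside were Sparcl1 (-5.77), the extracellular protease Mmp9 (-5.77), the aldolase Aldoc (-5.68), the potassium channel subunit Kcnab3 (-5.58), the GABA-synthesizing enzyme Gad2 (-5.49) and Pcp4l1 (-5.42). The step from Faim2 to Sparcl1 was therefore small. Without a pseudocount, on the plain ratio of means, Rasgrf1 ranked 1, Rd3l 2, Fgf1 4 and Faim2 12. The authors' deposited table gives log2 ratios of control over E18 of 8.37 for Rd3l, 8.79 for Rasgrf1, 7.26 for Fgf1 and 6.32 for Faim2.

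Set against the adult miR-1247 libraries, which share only the E18 side with that ranking, the differences were -7.33 for Rd3l, -6.52 for Rasgrf1, -5.07 for Fgf1 and -6.08 for Faim2. Rd3l, Rasgrf1 and Faim2 ranked 1, 3 and 4 there, and Fgf1 moved to rank 19. The gap between ages was thus present in both adult groups, as fold differences of miR-1247 over E18 of 431 for Rd3l, 436 for Rasgrf1, 72.2 for Fgf1 and 97.3 for Faim2.

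**Figure D2:**
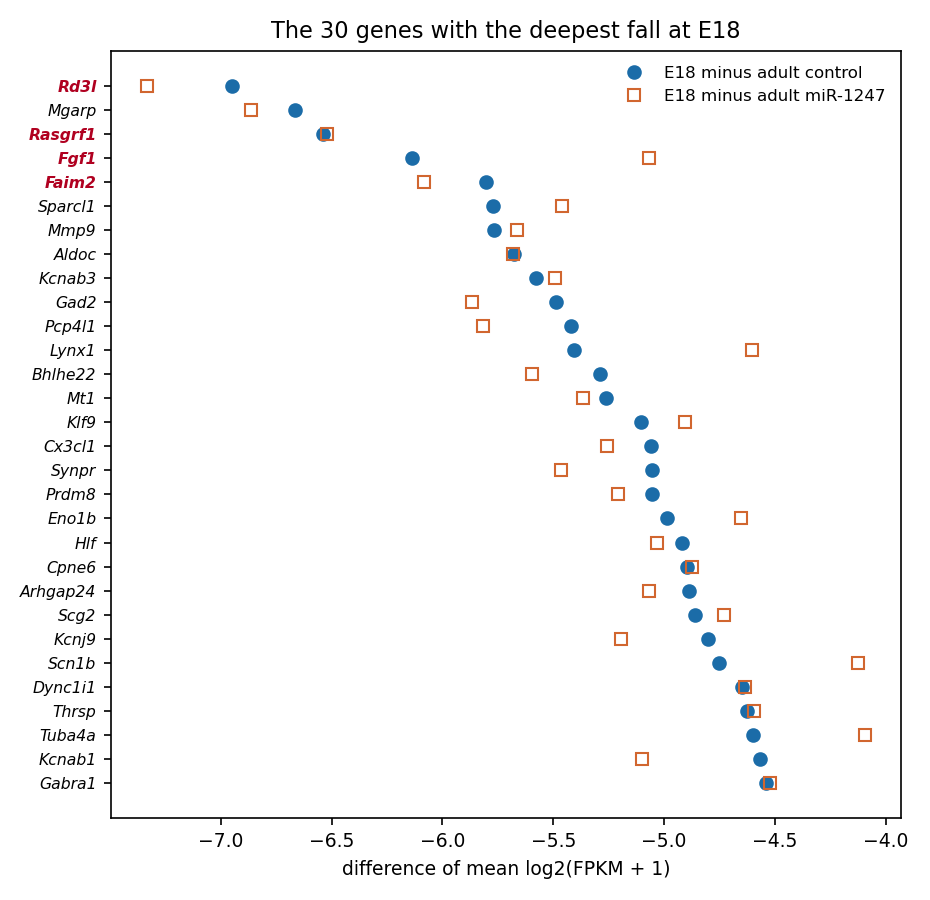
Difference of mean log2(FPKM + 1) at E18 from adult control (filled circles) and from adult miR-1247 (open squares) for the 30 genes with the deepest fall against control, the 4 chosen genes in red. Fgf1 shifts from -6.14 against control to -5.07 against miR-1247, while Rasgrf1 stays at -6.54 and -6.52; both differences of a gene use the same E18 libraries.

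The genes with the most similar pattern over the 6 libraries, by root mean square difference of centred log2(FPKM + 1) values among 9983 other genes, came largely from that same list. Mgarp was closest to both Rd3l (0.211) and Rasgrf1 (0.194). Faim2 was closest to Aldoc (0.181), Mmp9 (0.193) and Gad2 (0.195). Next to Rd3l came Gad2 (0.694) and Aldoc (0.712), and next to Rasgrf1 came Mmp9 (0.395) and Aldoc (0.404). For Fgf1 the nearest genes were Kcnab3 (0.443), Lynx1 (0.461) and Mmp9 (0.464). Lynx1, a modulator of nicotinic receptors, was like Fgf1 lower in both miR-1247 libraries (101 and 103 FPKM) than in both control libraries (177 and 179 FPKM). Its log2 fold change was -0.80, against -0.09 for Kcnab3 and -0.10 for Mmp9. The choice of these genes used the same miR-1247 libraries, so the values are a description.

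The miR-1247 effect in the adult was not used to choose the genes, though its test shares the control libraries with that choice. It asks what differed when the miR-1247-5p mimic replaced the scrambled one. None of the 4 genes passed limma's test at an adjusted p of 0.05, against 9.75% of 9987 tested genes (3.53% higher and 6.22% lower). At an unadjusted p under 0.05 there were 3 of 4, against 28.6% of all tested genes. The median log2 fold change over all tested genes was -0.03.

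Fgf1 had the widest difference. Both miR-1247 libraries lay below both control libraries, and the mean went from 113 ± 2.20 to 53.2 ± 0.178 FPKM (0.471 of control, SD, n = 2). The log2 fold change was -1.07 ± 0.317 (95% interval -1.83 to -0.31, adjusted p = 0.0830 in limma). Of all tested genes, 1.44% had a larger absolute change. The fit shares 1 estimate of spread per gene over the 3 groups, and the 13.5-fold gap between the E18 libraries entered it. With only the 4 adult libraries the same difference had an adjusted p of 0.0104 in limma, and without either E18 library an adjusted p of 0.0196. It passed in 4 of 18 fits, and the highest adjusted p among the others was 0.552, at a pseudocount of 0.01.

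Rd3l was higher in both miR-1247 libraries than in both control libraries, at 255 ± 13.7 against 195 ± 3.18 FPKM. Its log2 fold change was 0.38 ± 0.0951 (95% interval 0.15 to 0.61, adjusted p = 0.0539 in limma). It passed limma's test in 3 of 18 fits, at an adjusted p of 0.0422 under median ratio scaling, 0.0423 with the 4 adult libraries alone and 0.04999 at a minimum mean of 5 FPKM. Equal totals gave an adjusted p of 0.167 in limma, and the highest of all fits was 0.248.

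Faim2 was also higher in both miR-1247 libraries, at 219 ± 2.28 against 180 ± 1.53 FPKM. Its log2 fold change was 0.28 ± 0.0859 (95% interval 0.08 to 0.49, adjusted p = 0.0890 in limma, and 0.0423 with the 4 adult libraries alone, the 1 fit of 18 in which it passed, against up to 0.311 in the others). Rasgrf1 was at 115 ± 0.416 against 117 ± 5.44 FPKM, with a log2 fold change of -0.02 ± 0.0838 (95% interval -0.22 to 0.18, adjusted p = 0.915 in limma). Whether the 4 genes differed from each other in their response was not tested.

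**Figure D3:**
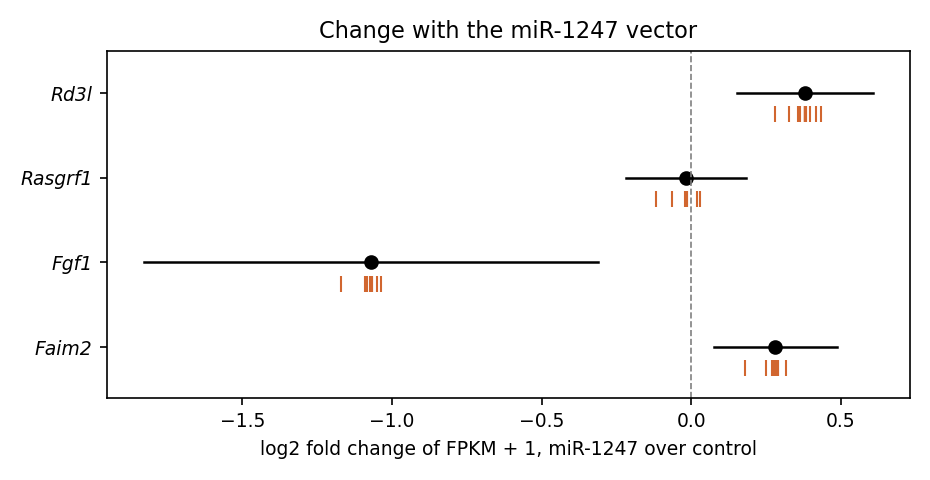
Log2 fold change of FPKM + 1, adult miR-1247 over adult control, for the 4 genes: points and lines are the estimate and its 95% interval from limma, orange ticks the estimates under the 17 other settings. The ticks of Fgf1 lie between -1.17 and -1.04 and those of Rd3l between 0.28 and 0.44, while those of Rasgrf1 fall on both sides of 0.

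The other FGF genes can be compared with Fgf1 at E18, where 70.1% of all tested genes passed the test against control (40.2% higher and 29.8% lower) and the median log2 fold change was 0.16. Higher genes were 57.4% of these calls, but 49.8% under median ratio scaling and 51.1% under quantile normalization. Counts of a list are to be read against these shares of all genes. Values in parentheses after gene names are log2 fold changes. Of the E18 calls named below, those of Frs3, Ptpn11, Hsp90aa1, Dusp5, Ksr2, Rps6ka1, Camk1g, Camk2d, Faim, Bok, Npr2, Gucy1a2, Pde6d and Glul were lost in at least 1 fit that left out a library. Those of Dusp5, Camk2d, Faim and Npr2 were also lost under all 3 other scalings, and that of Calm2 under 1. Of 5 tested FGF genes 4 fell at E18 and none rose, with a median of -1.78. Fgf14 fell from 32.5 ± 0.186 to 3.86 ± 0.0646 FPKM (-2.79), Fgf11 by 1.79, the secreted ligand Fgf9 by 1.78 and Fgf13 by 0.46. Fgf11, Fgf12, Fgf13 and Fgf14 are intracellular relatives that bind voltage-gated sodium channels and not FGF receptors. Fgf12 did not pass (128 ± 5.69 and 113 ± 18.0 FPKM). It was the one that fell in miR-1247 RGCs, to 78.0 ± 3.14 FPKM (log2 fold change -0.71, adjusted p = 0.0169 in limma), a call held in 2 of 6 fits that left out a library.

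Receptors and adaptors of the FGF pathway went both ways at E18, with 3 of 11 higher, 4 lower and a median of 0.09. The phospholipase Plcg1 rose from 10.0 ± 0.00856 to 44.7 ± 3.65 FPKM, and the adaptors Shc2 (1.55) and Shc1 (0.83) rose. Flrt3 (-2.16) and Flrt1 (-1.26), transmembrane partners of FGF receptors, fell, as did Frs3 (-0.53) and the phosphatase Ptpn11 (-0.34). Fgfr1, the only FGF receptor with an entry, was at 5.21 ± 0.205 FPKM in control, 4.63 ± 0.374 FPKM in miR-1247 and 3.82 ± 0.0575 FPKM in E18 libraries. It passed neither test, although its lower E18 level (-0.37) was called under all 3 other scalings. None of the 11 passed limma's test with miR-1247, and 0 of 11 did at an unadjusted p under 0.05. All 3 tested genes of the proteins that act with FGF1 in its release fell at E18: Anxa2 (-2.05), Syt1 (-1.81) and Hsp90aa1 (-0.14). Hsp90aa1 also fell with miR-1247, from 376 ± 3.43 to 255 ± 0.939 FPKM (-0.55, adjusted p = 0.00195 in limma, 6 of 6 fits that left out a library).

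Feedback genes that FGF signals induce were split at E18, with 4 of 7 higher and 2 lower. The ERK phosphatase genes Dusp4 (2.18) and Dusp6 (2.06) rose, with Spred3 (1.19) and Dusp5 (0.51), and Spred1 (-1.26) and Spry4 (-0.89) fell. Spry4 lies beside the Fgf1 locus (235691 bases between the genes) and, like Fgf1, was lower in both miR-1247 libraries. It was at 6.89 and 6.65 FPKM in control and at 2.17 and 2.43 FPKM in miR-1247 libraries (log2 fold change -1.24 ± 0.158, adjusted p = 0.0113 in limma). That call held in 2 of 6 fits that left out a library, and Spry4 was the only one of the 7 to pass.

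Of 14 other exchange factors of the Ras family, 6 rose at E18 and 4 fell, with a median of 0.10. The list includes exchange factors of Rap (Rapgef genes) and Ral (Ralgds, Rgl and Ralgps genes), and all 6 that rose were of these kinds. Among those that fell, only Rasgrf2 was not. Rasgrf2, the paralog of Rasgrf1, fell from 19.7 ± 2.23 to 7.25 ± 0.278 FPKM (-1.32). Rgl1 (-2.77), Rapgef4 (-1.51) and Rapgef2 (-0.98) fell as well. Rgl2 rose from 2.88 ± 0.353 to 29.9 ± 1.29 FPKM and Ralgds by 1.67. Sos1 and Sos2, the exchange factors of receptor tyrosine kinases, did not pass (Sos1 8.03 ± 0.857 and 9.66 ± 0.688 FPKM). With miR-1247, Rasgrp2 alone passed, falling from 21.3 ± 4.15 to 9.33 ± 0.822 FPKM (adjusted p = 0.0137 in limma, 1 of 6 fits that left out a library).

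**Figure D4:**
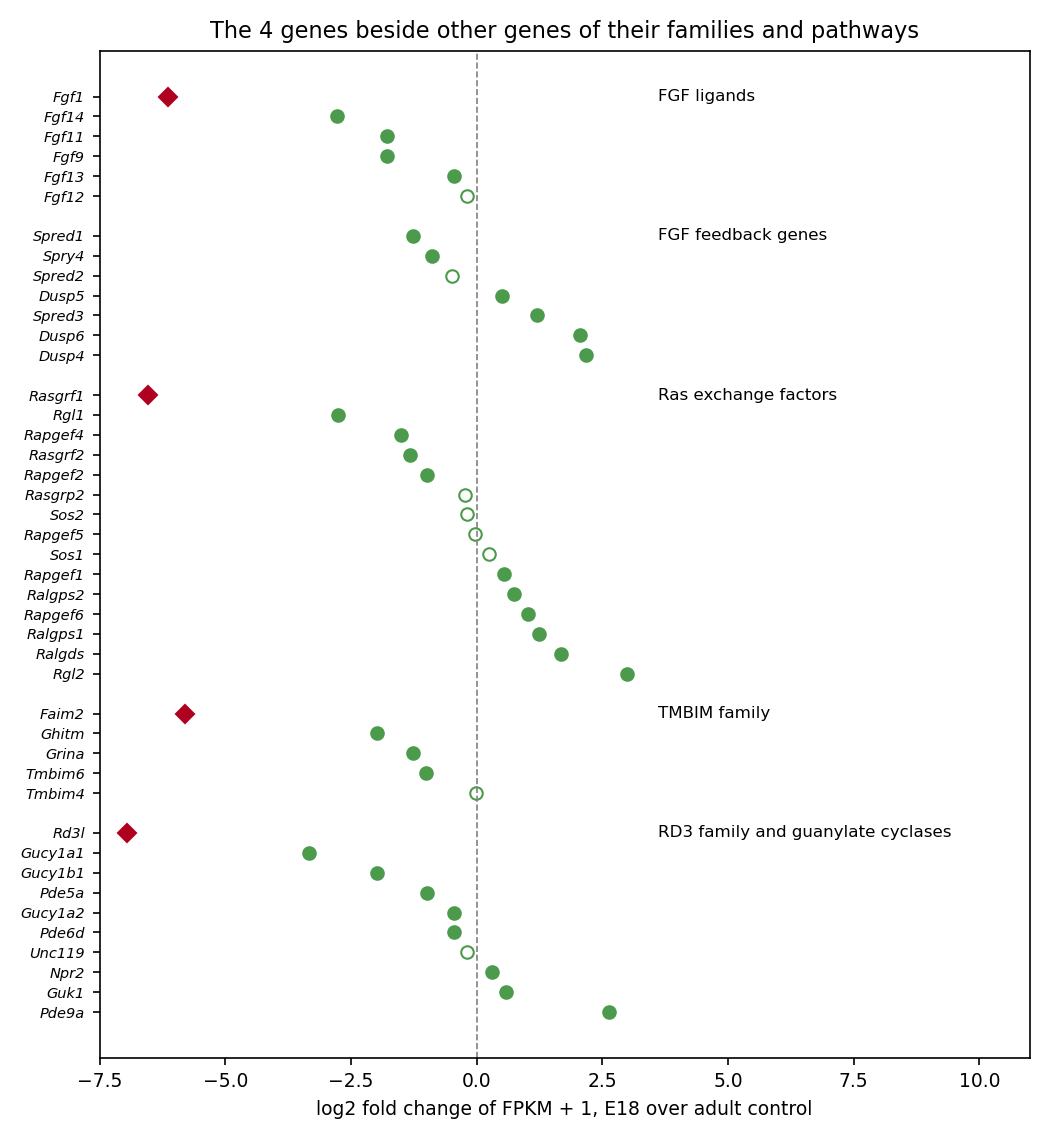
Log2 fold change of FPKM + 1, E18 over adult control, for the 4 chosen genes (red diamonds, chosen on this difference) and other genes of their families or pathways (green circles, filled where limma's adjusted p was under 0.05). Fgf14 at -2.79, Rgl1 at -2.77, Ghitm at -1.97 and Gucy1a1 at -3.33 are the lowest of the other genes in their lists, and the FGF feedback list holds none of the 4.

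Of 19 Ras family GTPases, 10 rose and 5 fell at E18 (median 0.55), beside 40.2% and 29.8% of all tested genes. Nras rose from 2.78 ± 0.194 to 22.7 ± 1.92 FPKM and Rhebl1 by 2.36, whereas Rasd2 (-2.97), Diras1 (-2.01), Rit2 (-1.83), Diras2 (-1.55) and Rheb (-0.47) fell. Rap2c alone rose with miR-1247 (0.81, in none of 6 fits that left out a library). The list of GTPase-activating proteins and related genes had 5 higher and 7 lower of 14 at E18 (median -0.41). None of them passed limma's test with miR-1247 (6 at an unadjusted p under 0.05). Rasa4 (1.93) and Iqgap1 (1.28), a related gene and not itself of this kind, were the highest. Sipa1l2 (-1.70) and Sipa1l3 (-1.67), regulators of Rap, were the lowest. In the kinase cascade below Ras, 4 of 11 rose and 3 fell (median 0.19). Rps6ka3 rose from 5.30 ± 0.261 to 13.8 ± 0.441 FPKM, with Map2k2 and Rps6ka1, and Map2k1 fell from 97.7 ± 7.11 to 27.2 ± 2.31 FPKM, with Ksr2 and Araf. Araf (-0.40) fell with miR-1247, a call held in none of 6 fits that left out a library.

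Calmodulin is the calcium sensor that activates Rasgrf1, and of its genes Calm3 (-0.56) fell and Calm2 (0.55) rose at E18. The whole list of calmodulin and its kinases also holds subunits of the phosphatase calcineurin (Ppp3 genes) and the calmodulin-binding Pcp4 and Nrgn. In it 11 of 19 fell and 5 rose (median -0.56). The lowest were the Camkv/Traip locus (-3.48), which holds a kinase-like gene and an unrelated neighbour, and Camk2a, which fell from 46.7 ± 2.68 to 6.93 ± 0.227 FPKM. The rises were Camk1 (1.49), Camkk2 (0.99), Camk1g (0.93), Calm2 and Camk2d (0.19). Camk2d (-0.32) and Ppp3ca (-0.28) fell with miR-1247, in none of 6 fits that left out a library.

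Faim2 relatives that passed at E18 were all lower. Of 4 other tested TMBIM genes 3 fell and none rose (median -1.14): Ghitm from 175 ± 5.27 to 43.8 ± 1.94 FPKM (-1.97), Grina (-1.27) and Tmbim6 from 134 ± 3.65 to 66.2 ± 0.870 FPKM. Tmbim4 did not pass (24.4 ± 3.70 and 24.0 ± 2.40 FPKM). With miR-1247, Grina fell by 0.18, a call lost under all 3 other scalings and in each fit that left out a library. Of 8 death receptor genes, Ngfr (0.64) and Faim (0.31) rose at E18 and Cflar (-1.70), which restrains caspase 8, fell (median 0.13). Ngfr rose with miR-1247 from 18.9 ± 0.00537 to 29.3 ± 1.13 FPKM and Tnfrsf21 fell from 19.8 ± 2.08 to 10.8 ± 0.601 FPKM, in 2 and 1 of 6 fits that left out a library. Fas, the receptor that Faim2 restrains, has no entry and was not analysed here.

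Of 18 genes of mitochondrial apoptosis, 10 rose and 5 fell at E18 (median 0.85), beside 40.2% and 29.8% of all tested genes. The death-promoting Bbc3 rose from 4.30 ± 0.312 to 23.8 ± 3.55 FPKM (2.22). The 5 that fell were Bnip3 (-1.56), the caspase inhibitor Xiap (-1.30), the protective genes Bcl2 (-0.84) and Bcl2l1 (-0.73), and Bok (-0.46). Protective genes went both ways, since the 10 that rose included Mcl1, from 24.6 ± 0.436 to 46.1 ± 0.808 FPKM (0.88). The Bcl2l2/Pabpn1 locus (0.83), which holds a further protective gene, rose as well. None of the 18 passed limma's test with miR-1247, and 3 did at an unadjusted p under 0.05. For Bcl2l1, for example, values were 91.5 ± 2.26 FPKM in control and 86.1 ± 3.63 FPKM in miR-1247 RGCs.

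Rd3, the paralog of Rd3l, and the photoreceptor cyclases Gucy2e and Gucy2f have no entry and were not analysed here. Of 9 tested genes of cyclic GMP synthesis, breakdown and related carriers, 5 fell and 3 rose at E18 (median -0.44). Gucy1a1 and Gucy1b1, which together form the nitric oxide receptor, fell from 146 ± 1.37 to 13.7 ± 1.23 FPKM (-3.33) and from 66.9 ± 4.09 to 16.3 ± 0.705 FPKM (-1.97). The phosphodiesterase gene Pde5a fell by 0.99, with Gucy1a2 (-0.46) and Pde6d (-0.44), whereas Pde9a (2.63), Guk1 (0.59) and Npr2 (0.31) rose. With miR-1247 the 2 that passed were both higher: Gucy1a1 (0.38, to 191 ± 4.76 FPKM) and Unc119 (0.68), in 2 and 1 of 6 fits that left out a library.

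Markers are a rough guide to the cells in the libraries and do not give cell numbers. Some, such as Isl1, were listed for more than 1 cell type. A marker without an entry does not show that its cell type was absent. All 17 RGC markers had an entry, and their sum ran from 3733 to 3799 FPKM in control, from 2262 to 2284 FPKM in miR-1247 and from 5941 to 5946 FPKM in E18 libraries. All 17 fell with miR-1247 (median -0.78), among them Nefl from 623 ± 5.72 to 310.2 ± 1.14 FPKM and Isl2 (-1.35), and Fgf1 lay lower in the same libraries while Rd3l and Faim2 lay higher. The calls of Isl1, Pou4f3 and Nefh were lost in at least 4 of 6 fits that left out a library, and that of Isl1 also under 2 of 3 other scalings. At E18, 13 rose and 4 fell (Thy1, Slc17a6, Nefh and Nrn1), with the rise of Nefl turning to a fall under 2 of 3 other scalings. Amacrine markers with an entry, 6 of 12, summed to 1576 to 1616 FPKM in control, 1593 to 1623 FPKM in miR-1247 and 927 to 957 FPKM in E18 libraries. Of these 6, 5 fell and 1 rose at E18, while with miR-1247 Pax6 rose and Calb2 fell. Calb2 was the largest part of the sums, with means of 901 FPKM in control, 663 FPKM in miR-1247 and 626 FPKM in E18 libraries.

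Markers of Müller glia and astrocytes (5 of 10 with an entry) summed to 1063 to 1409 FPKM in control and 1713 to 1825 FPKM in miR-1247 libraries. In E18 libraries they summed to 166.9 to 167.0 FPKM. At E18 4 were lower, among them Glul, and Vim was higher, and with miR-1247 Dkk3 was higher. The E18 call of Glul and the miR-1247 call of Dkk3 were lost in most fits that left out a library. The higher miR-1247 sums rest mainly on Glul, at 463 and 122 FPKM in control and 795 and 632 FPKM in miR-1247 libraries. Glul did not pass with miR-1247 (adjusted p = 0.116 in limma). Aldoc means were 521 FPKM in control and 522 FPKM in miR-1247 libraries. Gad2 and Aldoc, from the amacrine and glial lists, were also among the genes closest in pattern to Rd3l and Faim2. The part of cell composition in the values of the 4 genes was not tested. Bipolar markers (4 of 10) summed to 40.0 to 48.4, 49.6 to 52.8 and 175 to 176 FPKM in the 3 groups. Isl1, which RGCs also express, made up 163 and 164 FPKM of the E18 sums. Horizontal cell markers (4 of 6) summed to 53.2 to 55.1, 38.8 to 40.1 and 97.0 to 106 FPKM. Tpm3 made up 93.7 and 88.1 FPKM of the E18 sums. Tpm3 and Onecut2 were called higher at E18 than in control, and Calb1 was called lower (26.4 ± 2.53 and 3.87 ± 0.796 FPKM in control and E18). Rod markers (3 of 10) summed to 45.6 to 46.8, 24.3 to 26.9 and 5.57 to 6.41 FPKM. Progenitor markers (2 of 11) summed to 18.6 to 19.5, 19.6 to 22.4 and 49.5 to 52.9 FPKM. The oligodendrocyte gene Mbp, the only one of 7 with an entry, ran from 24.2 to 24.9, 35.6 to 41.5 and 9.15 to 11.5 FPKM. Npy, Car8, Gng13, Sag and Dapl1 were listed at 0 in at least 1 library. No cone, microglial or endothelial marker had an entry.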

How the data were processed

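HISAT2, Cufflinks and Cuffdiff, without versions, and the build mm39 are named per the submitters' processing notes. The FPKM table the authors deposited has 1 column per library and 11104 rows, each value raised by 1e-05, which was taken off again. The authors' log2 ratios of group means were deposited as well and are quoted once. Read counts were not used here, so depth is unknown and no counting interval is given; totals of listed FPKM ran from 339224 to 392238 per library, and log2 values of libraries of a group correlated at 0.980 to 0.985.

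Different loci of a gene name were summed, and names with identical loci were joined. Genes with a mean of at least 1 FPKM (9987) were fitted together by limma 3.58.1 (R 4.3.3) on log2(FPKM + 1), as 3 group means with trended variance. P-values are two-sided, adjusted over all tested genes (Benjamini-Hochberg) and called at 0.05. Fold changes are log2 differences ± standard error on this scale and understate changes of low genes. An exact 0 can be a failed estimate. The script was tested on simulated data. Tables and figures used Matplotlib 3.10.9, pandas 2.3.3 and NumPy 2.4.6 on Python 3.11.15.

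The 4 genes, the 13 pathway lists and the 11 marker lists were chosen with earlier results of these data known. The pathway lists covered FGF ligands, FGF receptors and adaptors, FGF1 release and FGF feedback. For the Ras family they covered exchange factors (with those of Rap and Ral), GTPases, and GTPase-activating proteins with related genes. The others were Raf, MEK and ERK kinases, calmodulin with its kinases and related genes, the TMBIM family, death receptors, mitochondrial apoptosis, and RD3 and guanylate cyclases. Named from each list are the 2 highest and 2 lowest called genes, and all called genes where a direction held 5 or fewer. Some genes that this rule names are not reported here. Members of lists singled out beyond that rule, such as Fgfr1, Tmbim4, Sos1 and Mcl1, were chosen after their values were seen. Alternatives covered pseudocount, filter, scaling, variance trend, loci kept apart, replicate block, the adult libraries alone and each library left out.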

Additional observations from a re-analysis of the deposited data

How the results depend on the processing

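The 4 genes kept the sign of their miR-1247 difference under all 17 alternatives except Rasgrf1, which was at 0.0192 under median ratio scaling and 0.0303 without control replicate 1 (-0.02 as reported). In limma, calls appeared for Fgf1 with equal totals (-1.17, adjusted p = 0.0496), with the 4 adult libraries (-1.07) and without either E18 library. Rd3l was called under median ratio scaling (0.42), a minimum mean of 5 FPKM (0.38) and the adult libraries alone (0.38). Faim2 was called with the adult libraries alone (0.28). Over all settings adjusted p ran from 0.0104 to 0.552 for Fgf1, 0.0422 to 0.248 for Rd3l, 0.0423 to 0.311 for Faim2 and 0.495 to 0.965 for Rasgrf1. Leaving out 1 library at a time gave -1.09 to -1.05 for Fgf1, 0.33 to 0.44 for Rd3l, 0.27 to 0.29 for Faim2 and -0.0642 to 0.0303 for Rasgrf1.

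The 974 genes called with miR-1247 became 343 without a variance trend, 347 with the 4 adult libraries and 584 with the replicate block, and ranged from 121 to 242 without each library in turn (185 and 177 without control replicates 1 and 2, 121 and 139 without miR-1247 replicates 1 and 2, 239 and 242 without E18 replicates 1 and 2). Fewer libraries enter these last fits; otherwise the cause was not tested. Higher genes were 36.2% of calls as deposited, 46.6% under median ratio scaling, 44.2% under quantile normalization and 15.1% with equal totals. For E18 the median gene moved from 0.16 to 0.02 under median ratio scaling and to 0.04 under quantile normalization. Calls at E18 ranged from 5930 to 7108 over all alternatives (6998 as reported).

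Of the 109 pathway entries called at E18, 94 held without each library in turn and 103 under all 3 other scalings. Of the 14 called with miR-1247, 1 held without each library in turn and 11 under all 3 scalings. Of the 25 marker entries called with miR-1247, 16 held without each library in turn and 21 under all 3 scalings. At E18 the depth of the fall rests on the pseudocount: at 0.01 it was -8.38 for Rd3l, -8.73 for Rasgrf1, -8.17 for Fgf1 and -6.32 for Faim2. Same-numbered libraries did not deviate together between groups over all tested genes (r of -0.01 to 0.00). This cannot show whether they were prepared together, which the labels do not say. The replicate block left all 4 genes uncalled. Values near 0 FPKM at E18 limit how closely any fold can be given.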
